A study of Saccharomyces cerevisiae with 72 samples.

Results

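The response of budding yeast lacking the kinase Gcn2 to acute histidine starvation was followed on 12 two-colour splicing arrays of the 72 in the study, which form 6 of its 36 dye-swapped pairs. These are all the arrays whose labels set Dgcn2 cells in 50 mM 3-AT (3-amino-1,2,4-triazole) against Dgcn2 cells left untreated at the same minute. The minutes were 2, 4, 6, 10, 15 and 20, with 1 array in each dye order at each minute. No other allele, strain background or medium is named for these samples. Treated and untreated cells both carry the gcn2 deletion, so each ratio shows the effect of the drug within the mutant. Another pair of courses at the same 6 minutes, also of 12 arrays each, was used for comparison. One set WT cells in 50 mM 3-AT against untreated WT cells and shares no RNA sample with the mutant course. The other, called the direct course here, set Dgcn2 cells in 3-AT against WT cells in 3-AT and shares its treated RNA with both. No label says that the time points were separate cultures, so the p-values below measure the spread between time points around a straight line in time, which may be technical.

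3-AT inhibits His3, an enzyme of histidine synthesis, and so starves cells of histidine. Uncharged tRNA activates Gcn2, which phosphorylates the translation factor eIF2, lowers general initiation and raises translation of the activator Gcn4, which in turn induces amino acid biosynthetic genes. Introns are rare in yeast and concentrated in ribosomal protein genes, whose pre-mRNAs carry much of the work of the spliceosome.

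Each value is a log ratio, taken as log2, of treated over untreated cells, averaged over both dye orders. The exon probe, or the only probe in a gene without 3 probe kinds, gives the level, which 976 genes had. For 229 genes with an intron, 96 of them for ribosomal proteins, the intron minus exon index and the junction minus exon index subtract the exon probe from the intron or junction probe. A higher intron minus exon index means that the intron probe's ratio of treated over untreated cells lay above the exon probe's, through a higher intron or a lower exon signal. An intron probe reads unspliced RNA and excised intron alike, and probe kinds were inferred. A course mean is the fitted value at the middle of the 6 minutes, with its standard error (SE, n = 6 pairs), and a slope is its change per 10 min. Both come from limma with Benjamini-Hochberg adjustment over all genes, and a gene passed at an adjusted p under 0.05. The arrays give the share of a transcript in total RNA of a culture, so fewer cells carrying a transcript and less of it per cell cannot be told apart.

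The correlation between the 2 dye orders was low at first and grew with the spread of the values. Over 1457 named probes, the correlation of the dye-swapped arrays was 0.364 at 2 min, 0.421 at 4 min, 0.561 at 6 min, 0.789 at 10 min, 0.88 at 15 min and 0.895 at 20 min. The SD of the pair means over probes lay between 0.186 and 0.247 up to 6 min and reached 0.552 at 20 min, while the SD of the dye disagreement (each array's distance from its pair mean) stayed between 0.113 and 0.138. The spread of the values was thus closer to the dye disagreement at 2, 4 and 6 min than later. The number of probes at least 0.5 from 0 was 50, 31, 76, 172, 329 and 387 in time order. Probe brightness was not used here, and precision is limited by how few arrays there are.

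GCN2 itself set the direction of the ratios. On the direct arrays it read -4.45, -4.54, -4.68, -3.88, -4.20 and -4.37 from 2 to 20 min, far lower in the labelled deletion than in WT at every minute. In the Dgcn2 course, where both samples lack the gene by label, it read 0.41, -0.39, -0.49, 0.11, -0.03 and -0.30, with a course mean of -0.11 that did not pass (limma adjusted p = 0.368).

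Of 46 listed Gcn4 pathway genes, 3 are on the array, all for histidine synthesis, and their course means in 3-AT were lower in Dgcn2 than in WT cells. HIS4, which encodes a multifunctional histidine enzyme, read 0.04, 0.04, -0.00, 0.25, 0.26 and 0.55 in Dgcn2 cells, against 0.17, 0.06, 0.37, 1.02, 1.73 and 2.12 in WT cells. HIS5, the histidinol-phosphate aminotransferase, read -0.12, -0.02, 0.11, 0.23, 0.71 and 1.04 in Dgcn2 cells, against -0.03, -0.05, 0.31, 1.25, 2.33 and 3.04 in WT cells. The courses overlapped in the first minutes and were apart from 10 min on, with the mutant lower. Both genes nevertheless rose in the mutant, with course means of 0.19 ± 0.04 for HIS4 (limma adjusted p = 0.00214) and 0.32 ± 0.04 for HIS5 (limma adjusted p = 5.28e-05). HIS2, histidinol phosphatase, had a course mean of 0.02 in Dgcn2 cells that did not pass (limma adjusted p = 0.75).

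The difference itself, Dgcn2 minus WT, was -0.72 for HIS4 (limma adjusted p = 6.68e-05), -0.82 for HIS5 (limma adjusted p = 6.68e-05) and -0.25 for HIS2 (limma adjusted p = 0.0118). Their slopes differed from those in WT by -0.94, -1.22 and -0.52 per 10 min, and each of these differences passed. On the direct arrays HIS4 read -0.82, -0.99, -1.22, -1.80, -2.39 and -2.62, and HIS5 read -0.58, -0.60, -0.70, -1.55, -2.40 and -2.83. HIS4 and HIS5 were thus already lower in treated Dgcn2 than in treated WT cells at 2 min, when neither course showed a response above 0.17. The gap widened with time.

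Of 16 listed regulators of this pathway, 6 are on the array, and none passed on its course mean in the mutant. Besides GCN2, GCN4 itself, the transcription activator, had a course mean of 0.02 (limma adjusted p = 0.69), GCN1 -0.12 (limma adjusted p = 0.0691), GCN20 0.05 (limma adjusted p = 0.344), GCN3 -0.15 (limma adjusted p = 0.0609) and GCN5 -0.07 (limma adjusted p = 0.0977). Gcn1 and Gcn20 help Gcn2 sense uncharged tRNA, Gcn3 is a subunit of the exchange factor eIF2B, and Gcn5 is a histone acetyltransferase. GCN20 had a rising slope of 0.31 per 10 min (limma adjusted p = 0.00267). The course means of GCN4 and GCN5 differed from WT by -0.21 (limma adjusted p = 0.0194) and -0.20 (limma adjusted p = 0.0222).

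Without Gcn2, 3-AT still altered many of the transcripts measured. Course means passed for 600 of 976 levels, 61.5% of those tested, of which 323 (33.1%) rose and 277 (28.4%) fell. With no slope in the fit 311 levels passed, 171 higher and 140 lower. Slopes passed for 509 levels, 52.2%, with 275 (28.2%) upward and 234 (24%) downward. Of the levels that rose, 227 also had a rising slope, and of those that fell, 177 had a falling slope. The minute at which a level reached 0.5 varied. Among the levels that passed, 11 rises and 2 falls were at 0.5 or beyond at 4 min and at every later minute, 77 rises and 49 falls did so from 15 min, 33 rises and 28 falls at 20 min alone, and 150 rises and 151 falls were smaller than that at 20 min. The 11 early rises included BAS1, a Myb-type activator of histidine and purine genes, IFH1, a coactivator of ribosomal protein genes, RAS1, a GTPase of the cAMP pathway, and SKY1, a kinase of SR-type RNA-binding proteins. The early falls were SDP1 and SNF4. These early genes were named after their values were seen.

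The 10 highest course means with 1 sign at all 6 minutes were those of RRP4, DHR2, NOG2, RCL1, RGS2, INO2, BAS1, CUP1-2, HMT1 and TEA1. RRP4, a core subunit of the RNA exosome, read 0.45, 0.52, 0.87, 1.30, 1.79 and 2.02, with a course mean of 1.16 ± 0.05 (limma adjusted p = 1.59e-07). DHR2, a DEAH-box helicase of small-subunit rRNA processing, read 0.04, 0.40, 0.71, 1.10, 1.89 and 2.45, with a course mean of 1.10 ± 0.04 (limma adjusted p = 1.19e-07). BAS1 read 0.49, 0.70, 0.81, 0.88, 1.18 and 1.28, with a course mean of 0.89 ± 0.04 (limma adjusted p = 1.72e-07). The 3 genes were above 0 at all 6 minutes, and DHR2 started near 0 while BAS1 was already high at 2 min.

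RGS2, a regulator of G-protein signalling, took another shape. It read 0.38, 0.96, 1.02, 1.01, 1.20 and 1.12, a step between 2 and 4 min followed by little further change. NOG2, a GTPase of large-subunit assembly, had a course mean of 0.99. Its probe kinds are uncertain, so this level may come from the intron probe, and its place among the highest rests on them. RCL1 of 18S rRNA processing had 0.95, INO2, an activator of phospholipid synthesis genes, 0.92, and HMT1, an arginine methyltransferase of RNA-binding proteins, 0.84. TEA1, an activator of Ty1 elements, had a course mean of 0.81. CUP1-2, a copper metallothionein, read 0.32, 0.00, 0.38, 0.52, 1.80 and 2.10, with a course mean of 0.85. The probe of CUP1-1, its near-identical copy, had a course mean of 0.04 that did not pass (limma adjusted p = 0.471), so the probes of the copies disagree.

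**Figure D1:**
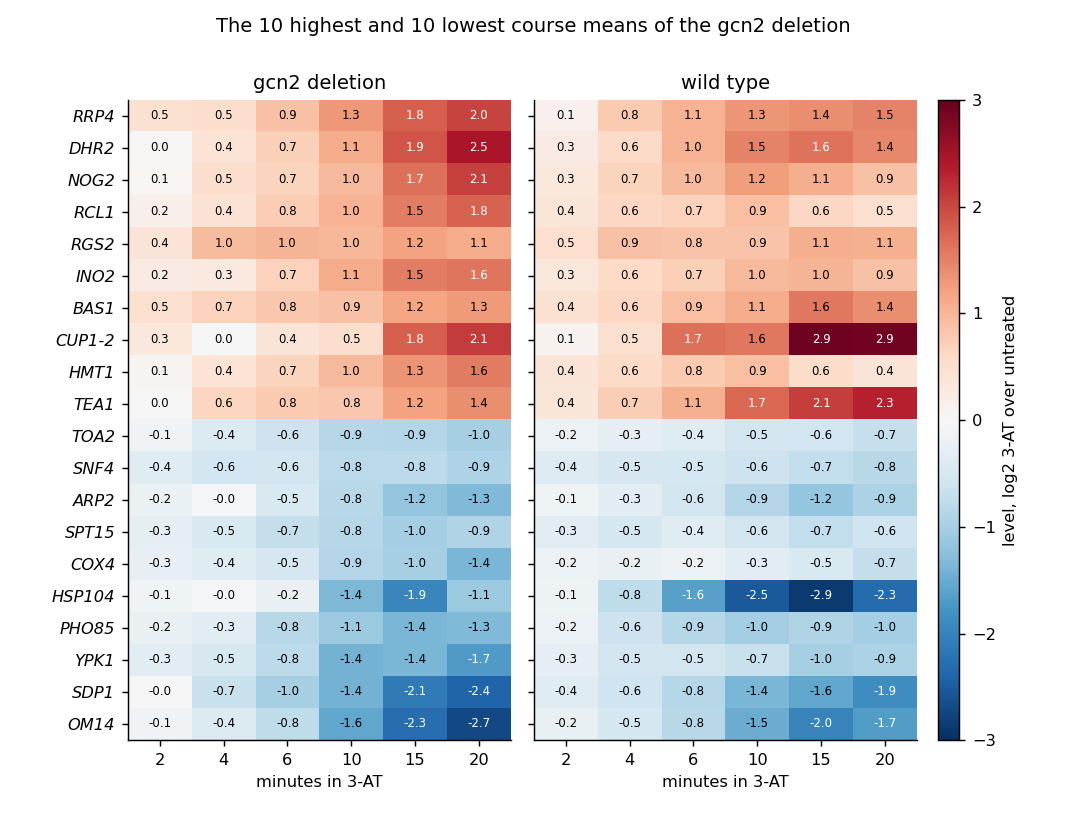
Heat map of the log2 ratio of treated over untreated cells for the 10 highest and the 10 lowest course means that had 1 sign at all 6 minutes (rows), by minute (columns), in Dgcn2 cells on the left and WT cells on the right. DHR2 reached 2.45 and OM14 -2.70 in Dgcn2 cells at 20 min, and RCL1 was at 1.78 in Dgcn2 cells at 20 min against 0.47 in WT cells.

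The 10 lowest course means with 1 sign at all 6 minutes began with OM14. This gene, for an outer mitochondrial membrane protein, read -0.11, -0.41, -0.76, -1.56, -2.28 and -2.70, with a course mean of -1.30 ± 0.05 (limma adjusted p = 1.59e-07). SDP1, a stress-responsive MAP kinase phosphatase, read -0.02 at 2 min, -0.66 at 4 min, -1.42 at 10 min, -2.11 at 15 min and -2.41 at 20 min, with a course mean of -1.27 ± 0.07 (limma adjusted p = 4.94e-07). Both declined at each successive minute. YPK1, a kinase of membrane lipid homeostasis, had a course mean of -1.01, PHO85, a cyclin-dependent kinase of phosphate control, -0.86, HSP104, the protein disaggregase, -0.80, and COX4, a cytochrome c oxidase subunit, -0.73. SPT15, the TATA-binding protein, had -0.70, SNF4, a subunit of the Snf1 kinase, -0.67, ARP2, an actin nucleator, -0.67, and TOA2, a TFIIA subunit, -0.65.

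The steepest downward slopes were those of CIN5, GAC1, OM14 and SDP1. CIN5, a bZIP stress factor, read 0.21, 0.37, 0.07, -1.04, -2.21 and -2.43, a slope of -1.76 per 10 min (limma adjusted p = 2.39e-05). GAC1, which targets the phosphatase Glc7 to glycogen synthesis, read -0.01, 0.19, 0.11, -1.04, -2.11 and -2.52, a slope of -1.67 per 10 min. Neither gene was below 0 by more than 0.01 up to 6 min, and both were at -1.04 at 10 min and lower after. In WT cells the same genes were already at -0.70 and -0.92 at 6 min. GPD1, the glycerol 3-phosphate dehydrogenase of osmotic adaptation, had a slope of -1.25 and ISF1 one of -1.13. OM14 at -1.50 and SDP1 at -1.27 per 10 min were also steep, but fell from the early minutes on. The steepest rises were DHR2 at 1.32 per 10 min and the DEAD-box helicases of rRNA processing DBP8 at 1.22, DBP6 at 1.06 and ROK1 at 1.06. CUP1-2 at 1.19 and NOG2 (probe kinds uncertain) at 1.06 were also among them.

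Genes of ribosome assembly rose together. Of 74 listed genes of ribosome biogenesis, 41 are on the array, and 37 rose and none fell, where 33.1% of all levels rose and 28.4% fell. The 41 include NOG2 and DBP2, whose probe kinds are uncertain. The median course mean of the 41 was 0.53, against a median of 0.02 over all levels. By minute their median was -0.04, 0.13, 0.34, 0.47, 0.86 and 1.15 in Dgcn2 cells, against 0.11, 0.31, 0.52, 0.70, 0.66 and 0.56 in WT cells. It was lower in the mutant than in WT up to 10 min and higher at 15 and 20 min. The 4 that did not pass were GAR1 (-0.04), SNU13 (-0.00), RRP5 (0.05) and NOP10 (0.11), of which GAR1, SNU13 and NOP10 encode small core proteins of snoRNA particles and RRP5 a large rRNA-binding protein.

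The time of the highest value differed with it. In Dgcn2 cells 37 of the 41 were highest at 20 min, whereas in WT cells 15 were highest at 10 min, 10 at 15 min and 10 at 20 min. The same count was not made over all levels, whose SD was also largest at 20 min, at 0.5977 in Dgcn2 cells and 0.5645 in WT cells. Whether a late peak is particular to these 41 genes was therefore not tested. Slopes were steeper in Dgcn2 than in WT cells for 18 of the 41 and shallower for none, where 8.09% of all levels had a steeper and 6.05% a shallower slope. RCL1 read 0.16, 0.42, 0.77, 1.03, 1.54 and 1.78 in Dgcn2 cells, against 0.36, 0.62, 0.69, 0.89, 0.62 and 0.47 in WT cells, a slope difference of 0.88 per 10 min (limma adjusted p = 0.00171). The DEAD-box helicase HAS1 read -0.04, 0.34, 0.30, 0.47, 0.60 and 0.88 in Dgcn2 cells, against 0.32, 0.32, 0.47, 0.45, 0.08 and -0.18 in WT cells (limma adjusted p = 0.00225 for the slopes). HAS1 was named after its values were seen. In both genes the WT values turned back after 10 min and the Dgcn2 values did not. Course means were higher in Dgcn2 than in WT cells for 2 of the 41 and lower for 1, where 9.84% of all levels were higher and 9.63% lower.

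**Figure D2:**
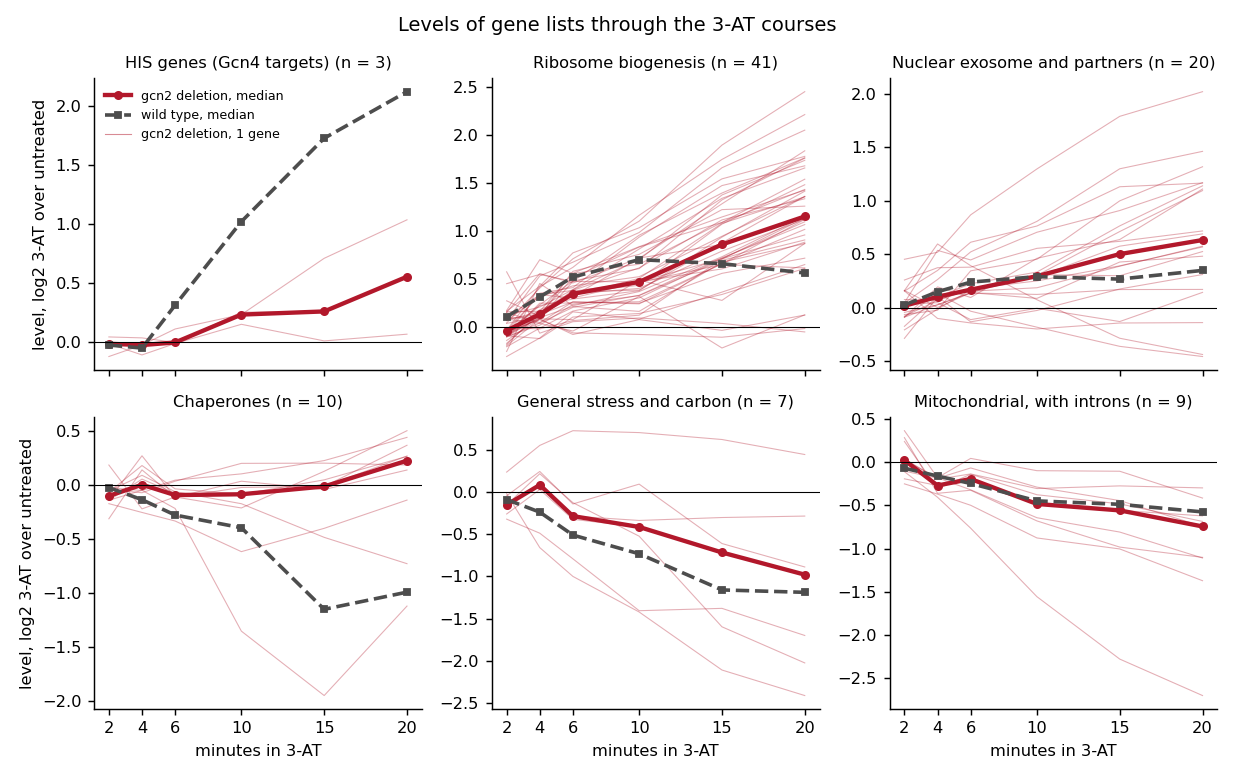
Log2 ratio of treated over untreated cells by minute for 6 gene groups, with each gene in Dgcn2 cells as a thin line, the Dgcn2 median as a thick red line and the WT median as a dashed grey line. The ribosome biogenesis median ends at 1.15 in Dgcn2 cells and 0.56 in WT cells, and the chaperone median at 0.23 in Dgcn2 cells and -0.99 in WT cells.

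Several groups of the RNA machinery are set here against all levels, of which 33.1% rose and 28.4% fell. Of 20 measured genes of the nuclear exosome, its TRAMP cofactor and their partners, 15 rose and 1 fell, with a median course mean of 0.27. Besides RRP4, AIR1, a zinc-knuckle protein of TRAMP, had a course mean of 0.73 and CSL4, of the exosome cap, 0.70. RRP43, a ring subunit, had -0.09 without passing, and NAB3, of the Nrd1 termination complex, fell by 0.16. The AIR1 course mean differed between Dgcn2 and WT cells by -0.56 (limma adjusted p = 0.000797). Of 14 measured genes of RNA polymerases I and III and their factors, 9 rose and 2 fell. PZF1, the 5S rRNA gene factor TFIIIA, had a course mean of 0.66, RPC19, a subunit of both enzymes, 0.54, and MAF1, the polymerase III repressor, -0.25. Among 91 genes of the spliceosome, 40 rose and 13 fell, with a median of 0.08. The helicase PRP43 had 0.65, PRP11 of the SF3a complex 0.61, NAM8 of the U1 particle -0.45 and the Lsm ring subunit LSM4 -0.38.

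Of 23 genes of cytoplasmic decay 9 rose and 7 fell, near the shares over all levels. UPF3, of nonsense-mediated decay, had a course mean of 0.49, MOT2, a ubiquitin ligase of the Ccr4-Not complex, 0.43, and PAN2, a deadenylase subunit, -0.28. Among ribosomal protein genes 35 of 122 levels rose and 13 fell, with a median of 0.04. RPS31, a fusion of ubiquitin with a small-subunit protein, fell most clearly, with a course mean of -0.51. Many ribosomal protein genes have a near-identical copy whose RNA may share a probe's signal.

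Among intron-containing genes outside the ribosome 69 of 133 levels fell and 15 rose, where 28.4% of all levels and 35.4% of all 229 exon probes fell. In the mitochondrial group 8 of 9 fell and none rose, with a median of -0.39. COX4 read -0.25, -0.37, -0.50 and -0.88 from 2 to 10 min in Dgcn2 cells, against -0.18, -0.22, -0.18 and -0.35 in WT cells, and its course means gave a difference in course mean of -0.38 (limma adjusted p = 0.000243). The mutant was lower at all 6 minutes. QCR10, a subunit of respiratory complex III, had a course mean of -0.51, and COX5B, an isoform of a cytochrome oxidase subunit, -0.53. Of 8 measured ubiquitin and proteasome genes 6 fell, among them PRE3, a catalytic proteasome subunit, at -0.54. Of 15 vesicle transport genes 8 fell and 1 rose, with SAR1, the COPII GTPase, at -0.56. Of 9 actin and tubulin genes 6 fell, with YSC84, an actin-binding protein of endocytosis, at -0.57. In the small group of 7 general stress and carbon genes, 6 fell, SDP1, YPK1 and GPD1 among them, and TYE7 rose. Genes were removed from several of these groups after values were seen, so their counts are a description.

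The calls of both courses overlapped. Of the levels that rose in Dgcn2 cells, 260 also rose in WT cells, which is 80.5% of the Dgcn2 rises and 74.1% of the WT rises. Of those that fell, 216 did so in both, which is 78% of the Dgcn2 falls and 70.8% of the WT falls, and 10 passed in opposite directions. In WT cells 67.2% of levels passed, 36% upward and 31.2% downward. Across 976 genes, which share probes and slide design but no RNA, course means correlated at r = 0.852. By minute, the Dgcn2 values at 15 and 20 min were most like the WT values at 10 min, at r = 0.86 and r = 0.853. At 20 min in both courses r was 0.756. These correlations are across genes, which are not independent replicates.

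The response itself differed between the strains for 190 levels, 19.5%, of which 96 (9.84%) were higher and 94 (9.63%) lower in Dgcn2 than in WT cells. The count rests on the time term and on the late minutes, since it was 0 with no slope in the fit (133 at an unadjusted p under 0.05) and 58 without 15 min. Slopes differed for 138 levels (14.1%), and for 21 without 20 min.

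Chaperones are among the genes higher in the mutant. In Dgcn2 cells 1 of 10 rose and 3 fell, with a median of 0.03, whereas in WT cells 8 fell and none rose, with a median of -0.50. Of all levels 28.4% fell in Dgcn2 cells and 31.2% in WT cells. The course mean was higher in Dgcn2 than in WT cells for 8 of the 10, and the slope for 7, where 9.84% and 8.09% of all levels were higher. HSC82, the Hsp90 chaperone, read -0.17, -0.25, -0.33, -0.61, -0.40 and -0.14 in Dgcn2 cells, against -0.06, -0.53, -0.88, -1.55, -2.59 and -2.25 in WT cells, a difference of 0.99 (limma adjusted p = 0.000823). The courses were together at 2 min and the WT values were the lower from 4 min on. SIS1, an Hsp40, read -0.06, 0.18, -0.03, -0.08, -0.01 and 0.27 in Dgcn2 cells, against 0.13, -0.13, -0.58, -1.28, -1.62 and -1.01 in WT cells, a difference of 0.79 (limma adjusted p = 0.00586).

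SSA1, a cytosolic Hsp70, differed by 0.58 (limma adjusted p = 0.000785), SSA2 by 0.49 (limma adjusted p = 0.0023) and KAR2, the Hsp70 of the endoplasmic reticulum, by 0.49 (limma adjusted p = 0.00337). Their own course means in Dgcn2 cells, 0.06, 0.01 and 0.05, did not pass. HSP104 read -0.14, -0.05, -0.21, -1.35, -1.95 and -1.12 in Dgcn2 cells, against -0.15, -0.75, -1.62, -2.52, -2.86 and -2.31 in WT cells, a difference of 0.90 (limma adjusted p = 0.0454). It therefore fell in both strains, later and less far in the mutant. SSB1, a ribosome-associated Hsp70, differed by 0.02 without passing (limma adjusted p = 0.86). On the direct arrays, HSC82 read 0.57, 0.89, 1.07, 1.62, 2.24 and 2.34 and SSA1 0.37, 0.65, 0.69, 0.74, 1.17 and 1.72. These direct values also hold any difference between the untreated strains. HSC82 was already higher in treated Dgcn2 than in treated WT cells at 2 min, when its Dgcn2 and WT courses were still together. SSA1 and SSA2 are near-identical, as are HSC82 and its paralogue, and may share signal.

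**Figure D3:**
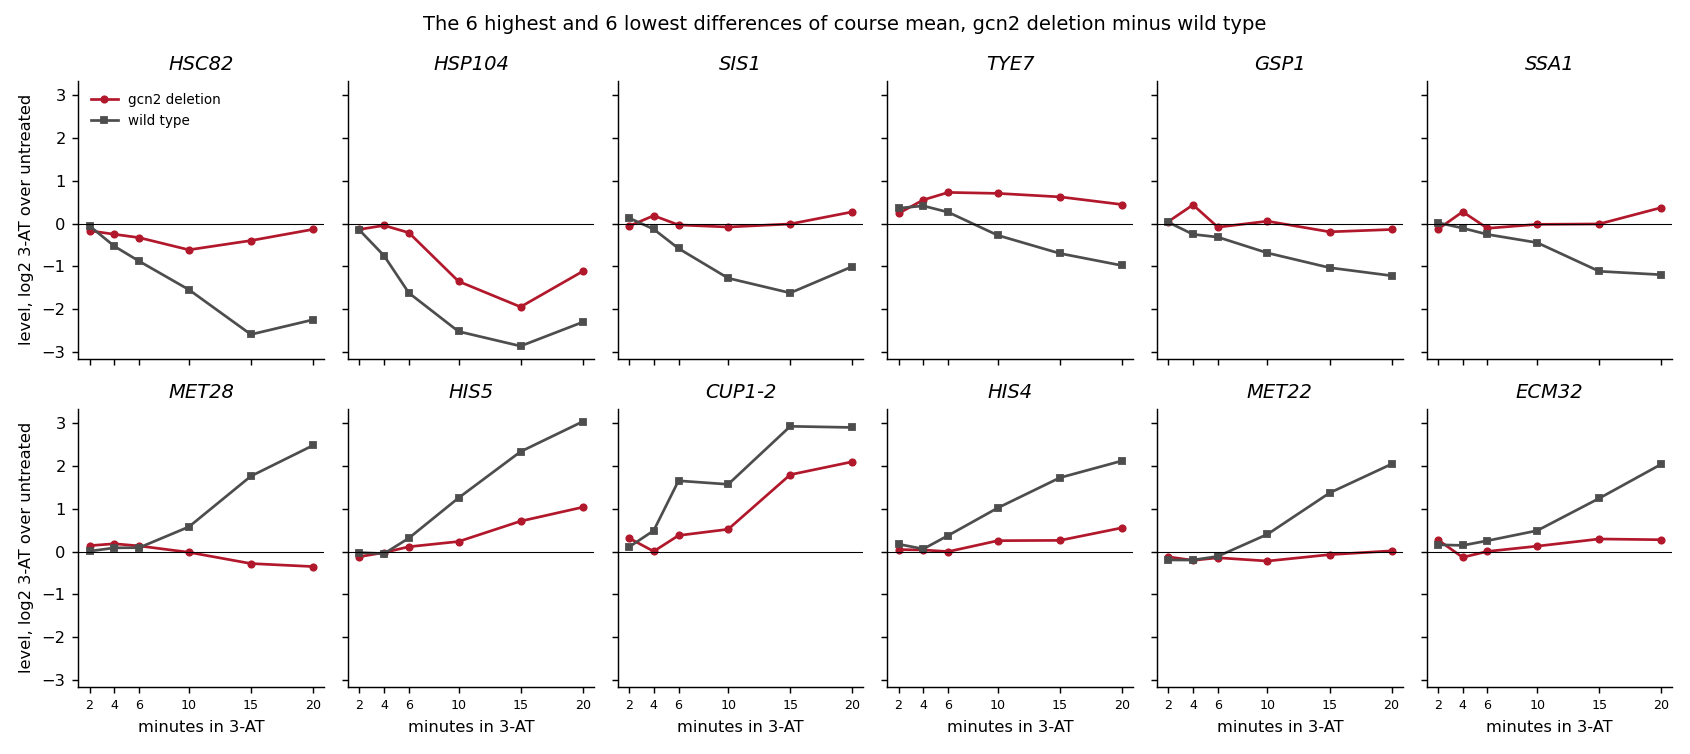
Log2 ratio of treated over untreated cells by minute in Dgcn2 cells (red) and WT cells (grey) for the 6 highest and 6 lowest differences in course mean that passed. At 20 min HSC82 was at -0.14 in Dgcn2 cells and -2.25 in WT cells, and MET28 at -0.35 in Dgcn2 cells and 2.48 in WT cells.

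TYE7, an activator of glycolytic genes, rose in the mutant, where it read 0.24, 0.55, 0.73, 0.70, 0.62 and 0.44, against 0.36, 0.41, 0.27, -0.28, -0.70 and -0.98 in WT cells, a difference of 0.70 (limma adjusted p = 0.000243). The courses were close at 2 and 4 min and apart after. GSP1, the Ran GTPase of nuclear transport, differed by 0.60 (limma adjusted p = 0.00045), since it had a course mean of 0.02 in Dgcn2 cells and -0.58 in WT cells.

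On the other side, MET28 and MET22 climbed late in WT cells and stayed near 0 or below in the mutant. MET28, a bZIP factor of sulfur metabolism, read 0.14, 0.18, 0.13, -0.02, -0.28 and -0.35 in Dgcn2 cells, against 0.01, 0.09, 0.09, 0.58, 1.76 and 2.48 in WT cells, a difference of -0.87 (limma adjusted p = 0.000135). MET22, a phosphatase of sulfate assimilation and salt tolerance, read -0.12, -0.21, -0.15, -0.22, -0.07 and 0.02 in Dgcn2 cells, against -0.20, -0.20, -0.11, 0.40, 1.37 and 2.04 in WT cells, a difference of -0.68 (limma adjusted p = 0.000211). Both pairs of courses were alike up to 6 min and separated from 10 min. The helicase ECM32 differed by -0.58 (limma adjusted p = 0.00158), and HRB1, a shuttling poly(A) RNA-binding protein, had the same shape with a slope difference of -0.88 per 10 min (limma adjusted p = 0.00398). CUP1-2 and TEA1 rose in both strains, with differences of -0.76 (limma adjusted p = 0.0152) and -0.57 (limma adjusted p = 0.00265).

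Intron probes of ribosomal protein genes rose in starved Dgcn2 cells. Of 96, 76 rose and 2 fell, where 69.9% of all 229 intron probes passed, 41% upward and 28.8% downward. Their median was 0.10, 0.15, 0.19, 0.31, 0.42 and 0.41 in Dgcn2 cells, against 0.28, 0.46, 0.51, 0.53, 0.30 and 0.24 in WT cells. The mutant began lower and ended higher. The intron minus exon index passed for 144 of 229 genes, 62.9%, with 106 (46.3%) higher and 38 (16.6%) lower. With no slope in the fit it passed for 84, 60 higher and 24 lower. Among ribosomal protein genes it rose in 60 and fell in 9 of 96, with a median of 0.22, and among the other genes it rose in 46 and fell in 29 of 133, with a median of 0.03. The index was higher in 31 and lower in 7 of 53 large-subunit genes (median 0.19), and higher in 29 and lower in 2 of 43 small-subunit genes (median 0.26). The difference between subunits was not tested.

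RPS24A had the highest index of the ribosomal protein genes, at 0.55, 0.54, 0.86, 1.18, 1.46 and 1.58, a course mean of 1.03 ± 0.05 (limma adjusted p = 3.26e-08). Its intron probe read 0.40, 0.38, 0.67, 0.89, 1.10 and 1.27, while its exon probe read -0.15, -0.16, -0.19, -0.29, -0.35 and -0.30. The intron signal thus rose at every step after 4 min as the exon signal lay below 0 throughout. RPS13 had an index of 0.05, 0.56, 0.40, 0.74, 1.01 and 1.33, with an intron probe up to 1.55 and an exon probe between -0.16 and 0.22. RPL20B had a course mean of 0.79 and RPL21A one of 0.66. RPL30, whose protein binds its own pre-mRNA and blocks its splicing, had an index of -0.01, 0.37, 0.56, 0.60, 1.42 and 1.54, with a slope of 0.85 per 10 min (limma adjusted p = 7.59e-05). Its intron probe reached 1.15 and its junction probe -0.80 at 20 min. RPS25B had a slope of 0.91 per 10 min. Slopes of the index passed for 100 genes, 43.7%, with 83 (36.2%) upward and 17 (7.42%) downward, and among ribosomal protein genes 46 were upward and 6 downward.

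**Figure D4:**
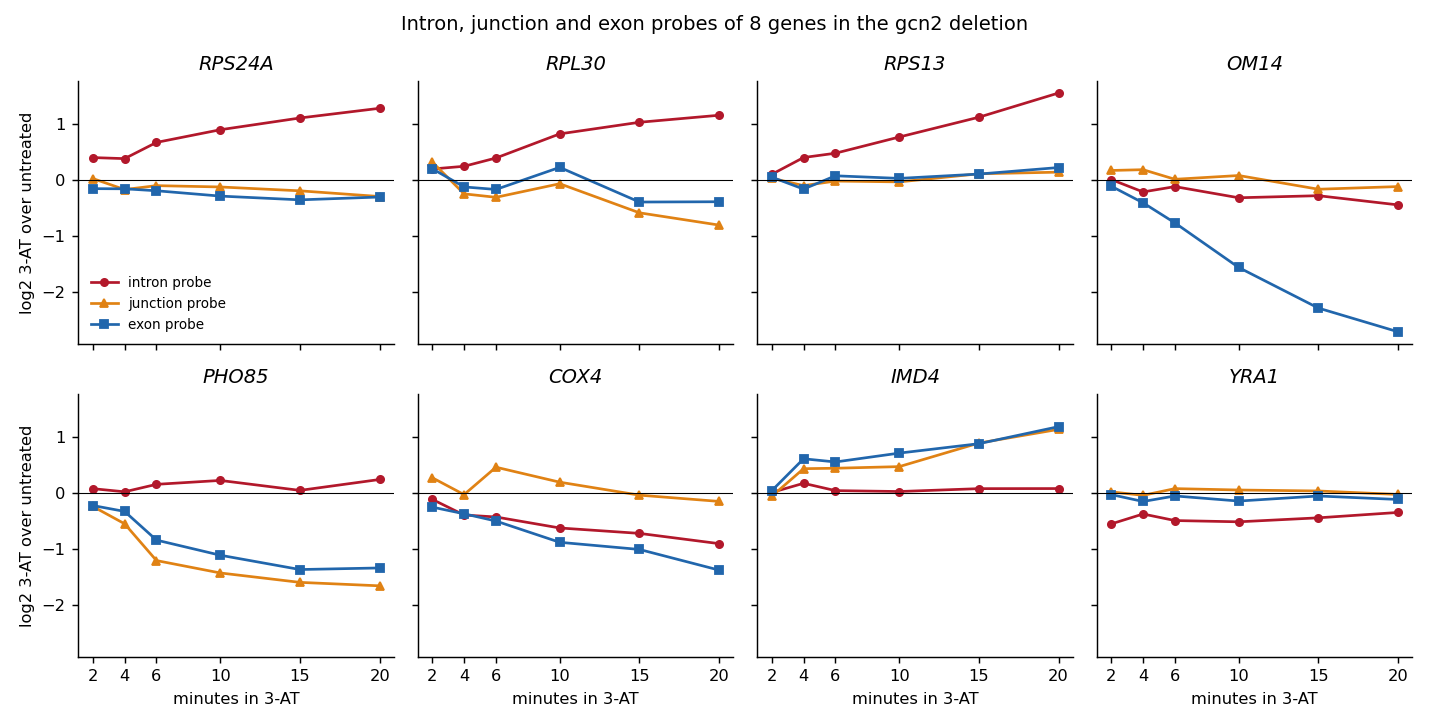
Log2 ratio of treated over untreated Dgcn2 cells by minute for the intron, junction and exon probes of 8 genes. In RPS24A, RPL30 and RPS13 the intron probe climbs to between 1.15 and 1.55 at 20 min, while in OM14 and PHO85 it is the exon probe that falls, to -2.70 and -1.33.

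The probe behind a higher index differed between the gene classes. Of the 60 ribosomal protein genes with a higher index, 58 had an intron probe that rose and 12 an exon probe that fell, where 35.4% of all 229 exon probes fell. Of the 46 other genes with a higher index, 10 had an intron probe that rose and 41 an exon probe that fell. Of all 229 intron probes 41% rose. A rising intron probe or a falling exon probe raises this index by its definition. Whatever the index, intron probes rose more often in ribosomal protein genes and exon probes fell more often in the other genes. OM14 had the highest index of all, 1.08 ± 0.06 (limma adjusted p = 6.05e-08), with an intron probe at -0.23 and an exon probe at -1.30 on average. PHO85 had an index of 0.99, with course means of 0.13 for its intron probe, -1.11 for its junction probe and -0.86 for its exon probe. LSB3, an actin-binding protein of endocytosis, had 0.63 and PRE3 0.57. In these 4 genes the intron probe lay between -0.23 and 0.13 on average, while the exon probe was at -0.54 or lower.

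Of the 38 lower indices, 29 belonged to genes outside the ribosome. IMD4, an IMP dehydrogenase, had an index of -0.59 ± 0.05 (limma adjusted p = 3.24e-06), with an exon probe that reached 1.18 and an intron probe that stayed between 0.01 and 0.17. YRA1, an mRNA export factor that represses its own splicing, had an index of -0.36, with an intron probe of -0.55, -0.37, -0.49, -0.51, -0.44 and -0.35 and an exon probe between -0.15 and -0.03. Its intron signal was low from the first minute, and the slope of its index did not pass (limma adjusted p = 0.437). ACT1, for actin, had an index of -0.34, with intron and junction probes at -0.38 and an exon probe at -0.04. SMD2, a core snRNP protein, had -0.39, MOB2, a cofactor of the kinase Cbk1, -0.48, and SPT14, of GPI anchor synthesis, -0.30. NOG2 (-1.38) and HNT1 (-0.36) were also low, but their probe kinds are uncertain. If the intron and exon probes of NOG2 are swapped, the sign of its index turns. DCN1, of cullin modification, and RPS9A had falling slopes of -0.53 and -0.44 per 10 min.

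The index of ribosomal protein genes rose in the WT course as well, with its median highest at an earlier minute than in Dgcn2 cells. In WT cells 72 of the 96 were higher and 2 lower, where 57.6% of all 229 were higher and 11.4% lower, and 57 were higher in both strains. The median index was -0.03, 0.17, 0.14, 0.25, 0.41 and 0.42 in Dgcn2 cells, against 0.25, 0.36, 0.46, 0.43, 0.19 and 0.20 in WT cells. At 2 min 40 of the 96 genes were above 0 in Dgcn2 cells, against 93 in WT cells, and at 20 min 79 were above 0 in Dgcn2 cells, against 69 in WT cells. Over all 229 genes the median index at 2 min was -0.03 in Dgcn2 cells and 0.11 in WT cells. The dye-swapped arrays at 2 min correlated at only 0.364 in the Dgcn2 course and 0.181 in the WT course. The ribosomal protein index was highest at 15 or 20 min in 24 and 46 genes in Dgcn2 cells, and at 10 min in 43 genes in WT cells. Late peaks in Dgcn2 cells were also common among the 133 other genes, with 28 highest at 15 min and 48 at 20 min. In WT cells 17, 36 and 43 of those others were highest at 10, 15 and 20 min. On the direct arrays the median of the ribosomal protein genes was -0.09, -0.06, -0.17, -0.10, 0.11 and 0.17, below 0 through 10 min and above 0 after. On those arrays index slopes passed for 63 of 229 genes (27.5%), with 50 (21.8%) upward and 13 (5.68%) downward, and 40 of the 96 ribosomal protein genes were upward and none downward.

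Slopes of the index were tested between the strains. They differed for 43 of 229 genes, 18.8%, with 35 (15.3%) steeper and 8 (3.49%) shallower in Dgcn2 cells. Of the 96 ribosomal protein genes 31 were steeper and none shallower, and of the 133 other genes 4 were steeper and 8 shallower. RPS8B read 0.03, 0.18, 0.26, 0.40, 0.51 and 0.58 in Dgcn2 cells, against 0.26, 0.57, 0.49, 0.57, 0.16 and -0.18 in WT cells, a slope difference of 0.61 per 10 min (limma adjusted p = 0.0141). RPS10B read -0.47, 0.20, 0.17, 0.26, 0.43 and 0.66 in Dgcn2 cells, against 0.41, 0.21, 0.52, 0.35, 0.03 and 0.06 in WT cells, a slope difference of 0.68 (limma adjusted p = 0.0141). At 20 min both genes were at their highest in the mutant and at 0.06 or lower in WT cells. For the intron probe alone, 32 of 96 were steeper and none shallower, where 15.7% of all 229 were steeper and 2.62% shallower. The intron probe is part of the index, so this is not separate support. The count of 43 was 0 on the arrays with treated RNA in Cy5 (43 at an unadjusted p under 0.05), 30 on those with it in Cy3, and 3 without 20 min.

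**Figure D5:**
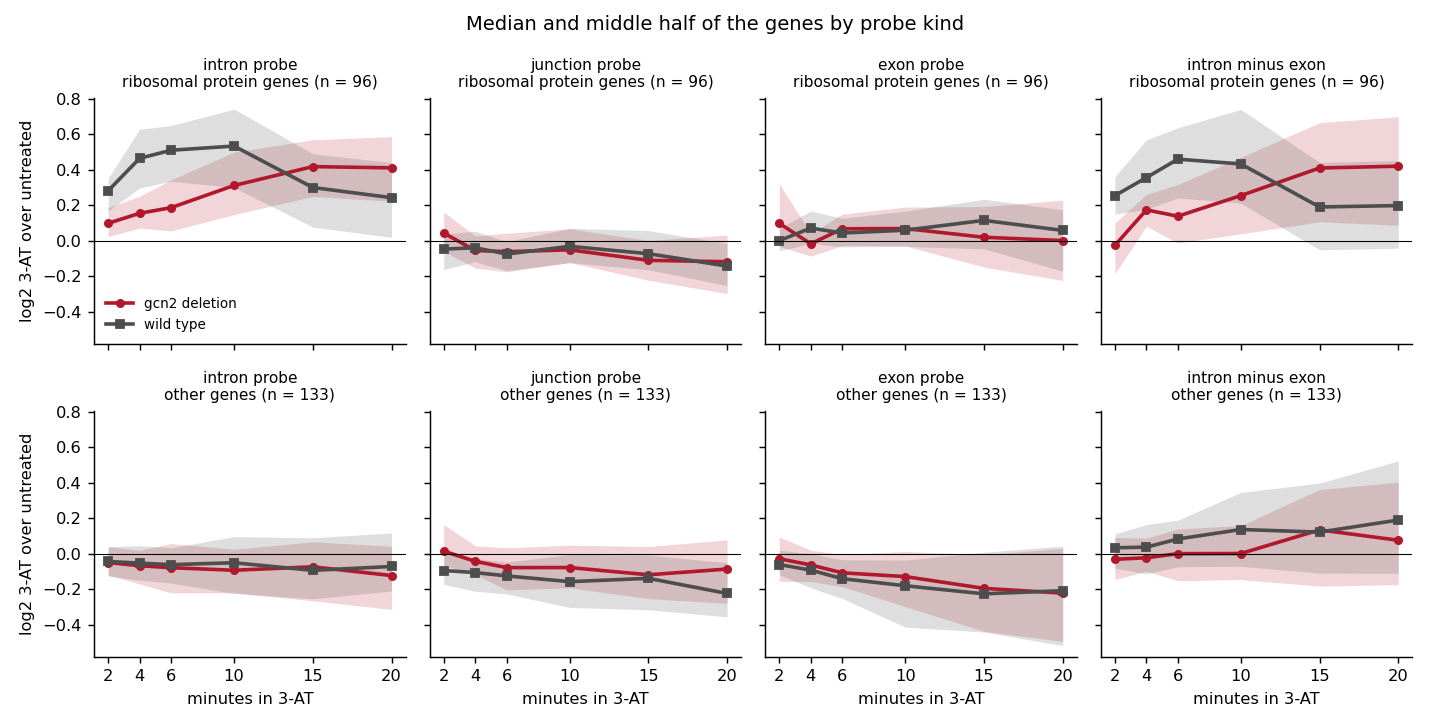
Median (line) and interquartile range (band) of the intron, junction and exon probes and of the intron minus exon index by minute, in log2 units, for 96 ribosomal protein genes (top) and 133 other genes (bottom), in Dgcn2 cells (red) and WT cells (grey). The ribosomal protein index climbs to 0.42 at 20 min in Dgcn2 cells, while in WT cells it peaks at 0.46 at 6 min and is 0.20 at 20 min.

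Course means of the index differed between the strains for 30 genes, 13.1%, with 3 (1.31%) higher and 27 (11.8%) lower in Dgcn2 cells. RPS9A read 0.09, -0.29, -0.35, -0.72, -0.74 and -0.80 in Dgcn2 cells, against 0.26, 0.20, 0.05, 0.09, -0.10 and -0.22 in WT cells, a difference of -0.52 (limma adjusted p = 0.00126). RPS29B read 0.05, 0.18, 0.42, 0.51, 0.98 and 0.93 in Dgcn2 cells, against 0.33, 0.79, 0.95, 1.26, 1.12 and 1.14 in WT cells, a difference of -0.42 (limma adjusted p = 0.0158). RPS9A moved apart with time and RPS29B was lower in the mutant at every minute. CPT1, a cholinephosphotransferase, differed by -0.54, and YNL050C, an uncharacterised gene, by -0.48. The 3 higher were DBP2 (0.41, kinds uncertain), TAD3, a tRNA deaminase subunit (0.33), and HAC1, the unfolded protein response factor, whose intron is removed by Ire1 and not by the spliceosome (0.24). With no slope term the count was 0 (32 at an unadjusted p under 0.05), and on the arrays of either dye order alone it was 6.

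The junction minus exon index, lower when the junction probe's ratio is below the exon probe's, passed for 97 of 229 genes, 42.4%, with 37 (16.2%) higher and 60 (26.2%) lower. Ribosomal protein genes were mostly lower, 39 of 96 against 4 higher, with a median of -0.09. Of those 39, 12 had a junction probe that fell, 19 had an exon probe that rose and 10 had neither on its own, where 21.4% of all junction probes fell and 19.7% of all exon probes rose. RPL22B read -0.32, -0.52, -0.58, -0.62, -0.94 and -0.89, a course mean of -0.64 ± 0.04 (limma adjusted p = 9.44e-05), with intron and exon probes that reached 0.98 and 0.73 at 20 min while the junction probe lay between -0.21 and 0.13. RPL18B had -0.46, RPS27A -0.39, RPL33B -0.39 and RPS23A -0.36. MPT5, a Puf-family mRNA-binding protein, had -0.60, MOB2 -0.53 and YNL050C -0.45.

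Among the other genes 33 of 133 had a higher junction minus exon index, where 16.2% of all 229 did. Of these 33, 28 had an exon probe that fell, where 35.4% of all 229 exon probes fell. A falling exon probe raises this index by its definition. OM14 had 1.33 ± 0.05 (limma adjusted p = 1.01e-05), with a junction probe at 0.03 on average. ARP2 had 0.92, COX4 0.85, LSB3 0.57, TMH18 0.47, PFY1, for profilin, 0.44, the meiotic recombinase DMC1 0.43 and the SNARE protein SFT1 0.39. In OM14 and ARP2 both the junction and the intron probe lay above the exon probe from 6 min on. Slopes passed for 49 genes (21.4%). The highest were OM14 at 1.32, NHP6B, a chromatin protein, at 0.92, ARP2 at 0.88 and SCS22, a tether of the endoplasmic reticulum, at 0.69, and the lowest were RPS9A at -0.62, QCR10 at -0.52, SPT14 at -0.49 and MPT5 at -0.42 per 10 min.

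Differences from WT in this index passed for 20 genes, 8.73%, with 14 (6.11%) higher and 6 (2.62%) lower in Dgcn2 cells. ATG38, of autophagy, was higher in Dgcn2 cells by 0.54, COX4 by 0.44, DMC1 by 0.44 and ERV1, a mitochondrial sulfhydryl oxidase, by 0.38. MOB2 differed by -0.51, CPT1 by -0.34, RFA2, of the single-strand DNA-binding complex RPA, by -0.33 and ARF2, a vesicle GTPase, by -0.20. The count was 0 on the arrays with treated RNA in Cy3 (40 at an unadjusted p under 0.05) and also 0 without 20 min (41 at an unadjusted p under 0.05). Slopes of this index differed for 1 gene (0.437%), UBC13, named after its value was seen.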

How the data were processed

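The authors deposited log ratios per spot, taken here as log2. Their base, background correction and normalization were not given in the sources used here. The labels of dye-swapped arrays name the same samples in reverse order, and these arrays were taken as technical replicates. Both dye orders already ran the same way. Probes were printed 4 times, and spots and dye orders were averaged to 6 values per course. Platform annotation named 1457 of 1536 probes (982 genes), with symbols updated through RefSeq (assembly R64, names only), and 79 are unnamed here. No source names probe kinds: they were inferred from spot spacing and the prp8-1 course, and 218 of 229 genes (95.2%) followed their class. The junction kind went to a remaining probe without a check against that course. Kinds are less certain for genes that went against their class, and NOG2, HNT1, DBP2, RPL23A and RPL6B are uncertain.

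R 4.3.3 with limma 3.58.1 (lmFit, eBayes) fitted an intercept and a slope on minute per course, with Benjamini-Hochberg adjustment over all genes. The fit was tried on simulated data with independent errors around a straight line. Such data cannot show how it handles curved courses or related time points. Python 3.11.15, pandas 2.3.3 and matplotlib 3.10.9 did the rest. Named genes are GCN2, the Gcn4 target and regulator lists, the highest and lowest passing course means (10 each for levels, 8 for indices, of 1 sign at all minutes), slopes and differences from WT (6 or 4 each), and the 2 highest and 2 lowest of each list, given where the text needs them. Members and lists were chosen with earlier results of these data known. The slope differences between courses and the lists of nuclear transport, polymerases, MCM and mating genes were added after the files were seen, and 8 genes were dropped from lists after their values were seen. Alternatives were 1 dye order, the median over spots, log2 minute, no slope, recentring, each minute left out, and the minute as a block across courses. A fit of the indices with only genes that followed their spacing class was added later. The shared minute is a label on both courses but not a shared culture or donor.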

Additional observations from a re-analysis of the deposited data

Results flagged for a closer look

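Of 199 levels and indices of named genes in the Dgcn2 course, 5 had 1 minute that stood apart from the other 5 by Dixon's test, which flags about 1 in 20 groups by chance. RGS2 was at 0.38 at 2 min with the nearest value at 0.96, and the junction minus exon index of LSB3 was at 1.51 at 20 min with the nearest at 0.63. TUB1, for alpha-tubulin, was at 0.15 at 4 min with the nearest at -0.05, RRP43 at 0.16 at 2 min with the nearest at -0.10, and STE3, the a-factor receptor, at -0.54 at 10 min with the nearest at -0.24.

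The course mean of these levels was higher in Dgcn2 than in WT cells by limma's test of the difference itself: HSC82 by 0.99, HSP104 by 0.90, SIS1 by 0.79, TYE7 by 0.70, GSP1 by 0.60 and SSA1 by 0.58. Negative differences of Dgcn2 minus WT were found for MET28 (-0.87), HIS5 (-0.82), CUP1-2 (-0.76), HIS4 (-0.72), MET22 (-0.68) and ECM32 (-0.58).

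For the intron minus exon index the differences of course mean were 0.41 in DBP2, 0.33 in TAD3, 0.24 in HAC1, -0.54 in CPT1, -0.52 in RPS9A, -0.48 in YNL050C and -0.42 in RPS29B. For the junction minus exon index they were 0.54 in ATG38, 0.44 in COX4, 0.44 in DMC1, 0.38 in ERV1, -0.51 in MOB2, -0.34 in CPT1, -0.33 in RFA2 and -0.20 in ARF2.

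Slopes of the level, Dgcn2 minus WT per 10 min, differed by 1.34 in HSC82, 0.89 in SSA1, 0.89 in TYE7, 0.88 in RCL1, 0.86 in SIS1 and 0.85 in HMT1, and by -1.79 in MET28, -1.25 in MET22, -1.22 in HIS5, -0.94 in HIS4, -0.94 in ECM32 and -0.88 in HRB1. Slopes of the intron minus exon index differed by 0.68 in RPS10B, 0.62 in RPL30, 0.61 in RPS8B and 0.60 in RPL35A. They differed by -0.91 in NOG2 (kinds uncertain), -0.63 in MEI4, -0.53 in PMI40 and -0.52 in SAC6.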

How the results depend on the processing

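Counts of changed levels and indices in Dgcn2 cells were steadier than counts of differences from WT. With no slope term, 311 levels in place of 600 and 84 intron minus exon indices in place of 144 passed. Leaving out each minute in turn gave 315 to 515 level slopes (509 with all) and 65 to 107 intron minus exon slopes (100 with all), the lowest of each without 20 min.

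Of the differences from WT, 0 levels and 0 intron minus exon indices passed in limma with no slope term (133 and 32 at an unadjusted p under 0.05), and 2 junction minus exon indices. By leaving out minutes, differing levels (190) ranged from 58 to 275, and were 106 without 10 min, 58 without 15 min and 76 without 20 min. Differing intron minus exon indices (30) ranged from 5 to 40, and were 11, 6, 7, 5 and 16 without 4, 6, 10, 15 and 20 min. Differing junction minus exon indices (20) ranged from 0 to 16, and were 8, 7 and 3 without 4, 6 and 10 min and 0 without 15 or 20 min (43 and 41 at an unadjusted p under 0.05). Differing level slopes (138) ranged from 21 to 130, with 73, 48 and 21 without 6, 15 and 20 min. Differing intron minus exon slopes (43) ranged from 3 to 48, with 13, 5 and 3 without 6, 15 and 20 min, of which 9, 3 and 1 were ribosomal protein genes.

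One dye order alone gave 6 (Cy5) and 6 (Cy3) differing intron minus exon indices, 8 (Cy5) and 0 (Cy3, 40 unadjusted) differing junction minus exon indices, and 0 (Cy5, 43 unadjusted) and 30 (Cy3) differing intron minus exon slopes. Course means of HIS2 (-0.119), GCN4 (-0.142) and MFA1 (-0.185) turned sign with Cy3 alone, and those of TIF1 (0.151) and HMRA1 (0.004) with Cy5 alone. The cause was not tested.

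With the minute as a replicate block across both courses, 171 levels, 42 intron minus exon and 11 junction minus exon indices, 114 level slopes and 63 intron minus exon slopes differed. No Dgcn2 minute correlated best across levels with the same WT minute. The other alternatives (median over spots, log2 minute, recentring, only genes that followed their spacing class) kept each count within 1.5 times. Of 2624 values of named genes under alternatives, 2355 kept direction and side of the threshold, 228 no longer passed, 36 newly passed and 5 turned sign.

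The course has 1 pair of arrays per minute, the spread of values is closest at early minutes to the dye disagreement, the log base is assumed, probe kinds are inferred, near-identical gene copies are not told apart by name, and the treated RNA of each strain was used on several arrays.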

Other observations

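Most probes of nuclear transfer RNA genes fell in Dgcn2 cells. Of 40 nuclear tRNA genes 24 fell and 1 rose, with a median course mean of -0.18, and 26 slopes fell and none rose. Their median was 0.10, -0.11, -0.09, -0.18, -0.56 and -0.50 in Dgcn2 cells, against -0.21, -0.17, -0.02, -0.23, -0.09 and -0.30 in WT cells. In WT cells 23 fell and 2 rose. Of 24 mitochondrial tRNA genes 13 fell and none rose in Dgcn2 cells, with a median of -0.24, and 17 fell in WT cells. Over all levels 28.4% fell and 33.1% rose in Dgcn2 cells, and 31.2% fell and 36% rose in WT cells. Of all level slopes in Dgcn2 cells 24% fell and 28.2% rose. SUF10, a nuclear tRNA gene, had a course mean of -0.49. Copies of a tRNA gene are near-identical and may share signal.

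Of 30 nucleoporin genes 13 rose and 4 fell, where 33.1% of all levels rose and 28.4% fell. Their slopes rose for 15 and fell for none, where 28.2% of all level slopes rose and 24% fell. NUP60 had a course mean of 0.43 and SEH1 one of -0.36. Of the 6 MCM helicase genes 3 rose and none fell. MCM5 read -0.16, 0.11, 0.36, 0.46, 0.82 and 0.92 in Dgcn2 cells, against -0.23, -0.03, 0.06, 0.10, 0.21 and 0.16 in WT cells, a difference in course mean of 0.38 (limma adjusted p = 0.00155). MCM2 differed by 0.23 (limma adjusted p = 0.0132).

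The next groups are set beside all levels, of which 33.1% rose and 28.4% fell, and several of their counts lie near those shares. Of 14 karyopherin and Ran genes 2 rose and 3 fell, with the Ran gene GSP2 at -0.57. Of 15 mRNA export genes 5 rose and 3 fell, with HPR1 of the THO complex at 0.51 and YRA2 at -0.87. Of 17 cleavage and polyadenylation genes 4 rose and 5 fell. Mating-type alpha genes had 1 rise and 4 falls of 5, with MATALPHA2 at 0.25 and STE3 at -0.25, and mating-type a genes had 1 rise and 1 fall of 4. Among intron-containing meiotic genes 1 of 12 rose and 4 fell, and of 7 translation factor genes 1 rose and 1 fell.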
